A study of Rattus norvegicus with 48 samples.

Results

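The genes described here are 9 that natural killer (NK) cells and cytotoxic T cells use to find and kill other cells: Nkg7, Prf1, Gzma, Gzmb, Klrd1, Ncr1, Klrb1a, Eomes and Tbx21. They were chosen by name and read from every row carrying that name in the 3 tables of rat lung RNA, 1 table for each day of sampling. Of the 9 names, 8 had a row, and Gzmb had 2 (ENSRNOG00000045973 and ENSRNOG00000049976), which made 9 rows of 32285 gene identifiers. Klrb1a was not matched by name and its RNA level was not analysed here. All 9 rows passed the filter on low counts in every comparison. The animals were male Sprague-Dawley rats kept in chambers that held either filtered air or 30 mg/m3 of fracking sand dust together with 1.0 mg/m3 of diesel particles. Every rat breathed its atmosphere for 6 hours a day on 4 days, and a piece of lung was taken 1, 7 or 27 days later. There were 8 air and 8 exposed rats at each day by the labels, 48 in all, each rat giving 1 library. Dust and diesel were given together, so these groups cannot separate them, and the ages of the rats were not given in the sources used here.

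NK cells kill without prior sensitisation, and cytotoxic T cells kill after recognising antigen, but both use the same machinery. Perforin (Prf1) opens the target cell membrane, granzymes such as Gzma and Gzmb enter and start its death, and Nkg7 is a granule membrane protein needed for efficient release. Klrd1 pairs with other lectin-like receptors to read class I molecules, and Ncr1 is an activating receptor found mainly on NK cells. Eomes and Tbx21 (T-bet) are T-box transcription factors that drive the maturation of both cell types, and the lung normally holds many circulating and resident NK cells.

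Library totals ran from 9445687 to 14400337 counts, with a median of 12004528. Levels are in CPM, counts relative to the scaled library total, which take no account of gene length, so they are compared between groups and not between genes. Libraries are numbered 1 to 8 within each group, a number that only names a library. Of the 168 pairs of libraries within groups, 4 differed by 1.45 to 1.66 times what counting alone gives, and the remaining 164 by 2.40 times or more. The close pairs were libraries 1 and 4 (exposed, day 1), 1 and 4 (air, day 7), 3 and 6 (exposed, day 7) and 3 and 6 (air, day 27). Each such pair may be 1 sample, so the number of separate animals behind the tests, which used all 8 libraries a group, may be smaller. Each pair was counted as 1 sample where a mean ± SD is given, and was summed in an alternative. Markers of T cells, B cells, neutrophils, macrophages and dendritic cells were all found beside the NK genes, as whole lung should hold. In such tissue, fewer cells of a type and less RNA per cell cannot be told apart. The labels name each animal but not its cage, and no chamber entered the tests. The p-values set group differences against the spread between libraries, so differences between cages or chambers are not covered.

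Exposure left the killing machinery without a detected change on any single day. By edgeR's quasi-likelihood test, 0 of 9 rows passed an adjusted p of 0.05 at day 1, when 0.0279% of all genes tested did. At day 7 it was 0 of 9, beside 0% of all genes, and at day 27 it was 0 of 9, beside 5.52% of all genes. With an unadjusted p under 0.05 there were 1, 2 and 0 rows at days 1, 7 and 27, where 8.67%, 8.47% and 26.7% of all genes had one. DESeq2 and limma-voom called 0 rows on each day too. The median log2 fold change of the 9 rows was -0.02, -0.09 and -0.02, beside 0.00, -0.00 and -0.01 for all genes tested. Air and exposed libraries overlapped for every one of the 9 rows on every day, but the share of all genes that overlap was not computed.

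**Figure D1:**
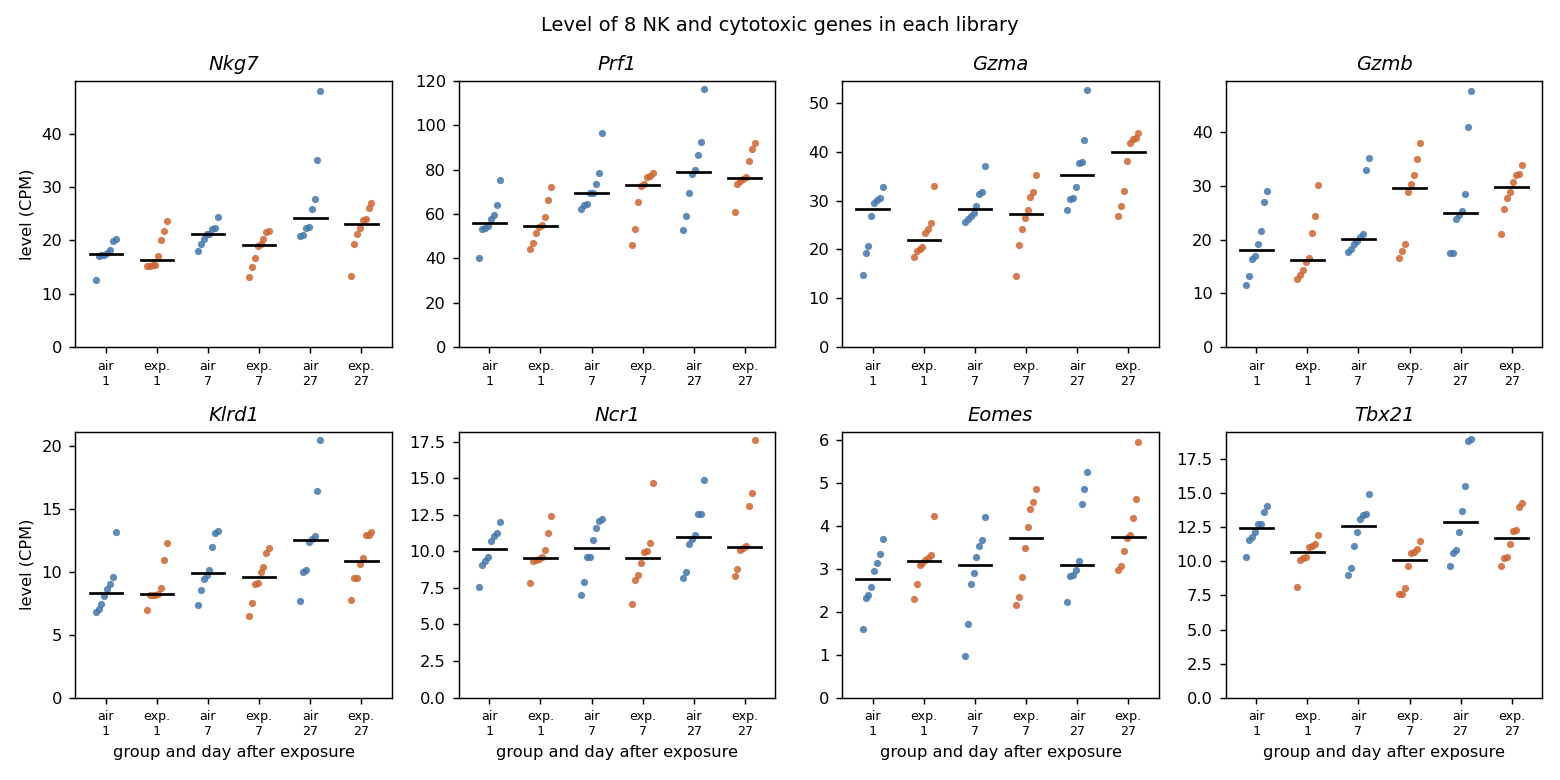
Level of each gene in CPM (y axis, starting at 0) in the 48 libraries, by group and day (x axis), with Gzmb as the sum of its 2 rows. Each point is 1 library and each bar the median of 8; air is blue and exposed is orange. Air and exposed points overlap in all panels, and the Tbx21 medians are lower in exposed lungs on all 3 days.

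Prf1, the pore-forming protein, ran from 40.2 to 75.2 CPM in air lungs at day 1 (median 56.2) and from 44.2 to 72.3 CPM in exposed lungs (median 54.6). At day 7 it ran from 62.3 to 96.6 CPM in air (median 69.5) and from 45.8 to 78.6 CPM after exposure (median 73.2). At day 27 it ran from 53.0 to 116 CPM in air (median 79.0) and from 60.8 to 92.2 CPM after exposure (median 76.2). The ranges lay over each other on all days, with the highest air animals above every exposed animal at each day. The log2 fold changes, exposed over air, were -0.02 ± 0.113 (SE), -0.09 ± 0.118 and -0.02 ± 0.133 at days 1, 7 and 27. At day 27 the 95% interval of the fold ran from 0.815 to 1.20.

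Gzma, a granzyme that cuts after basic residues, ran from 14.8 to 32.8 CPM in air at day 1 (median 28.2) and from 18.4 to 32.9 CPM after exposure (median 21.9). At that day 7 of 8 exposed libraries lay below the air mean. At day 7 Gzma ran from 25.6 to 37.0 CPM in air (median 28.2) and from 14.6 to 35.2 CPM after exposure (median 27.2). At day 27 it ran from 28.1 to 52.6 CPM in air (median 35.2) and from 26.8 to 43.9 CPM after exposure (median 40.0). The order of the medians thus differed between days, and the log2 fold changes were -0.15 ± 0.155, -0.15 ± 0.140 and 0.02 ± 0.134, with edgeR adjusted p of 0.827, 0.810 and 0.927.

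Gzmb, the granzyme that cuts after aspartate, carried estimated counts that were not whole in both rows in 48 of 48 libraries, while their sum was not whole in 6, at a tolerance of 0.001. The quantification had therefore divided reads between the rows, and their separate levels are uncertain. As a sum, a choice made after the data were seen, Gzmb ran from 11.5 to 29.0 CPM in air at day 1 (median 18.1) and from 12.6 to 30.1 CPM after exposure (median 16.2). At day 7 it ran from 17.7 to 35.3 CPM in air (median 20.2) and from 16.6 to 38.0 CPM after exposure (median 29.6). At day 27 it ran from 17.5 to 47.8 CPM in air (median 25.0) and from 21.1 to 33.9 CPM after exposure (median 29.8). At day 7, 5 exposed libraries lay above the air mean, among them the close pair 3 and 6, and 3 lay below it. The difference between exposed and air was 0.24 ± 0.210 on the log2 scale and did not pass (edgeR adjusted p = 0.791). At days 1 and 27 it was -0.06 ± 0.216 and 0.04 ± 0.188.

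Nkg7 ran from 12.5 to 20.3 CPM in air at day 1 (median 17.5) and from 15.2 to 23.6 CPM after exposure (median 16.2). At day 7 it ran from 18.0 to 24.4 CPM in air (median 21.2) and from 13.2 to 21.8 CPM after exposure (median 19.1), with 3 exposed libraries below every air library. At day 27 it ran from 20.7 to 48.1 CPM in air (median 24.2) and from 13.4 to 26.9 CPM after exposure (median 23.1). The day 27 air mean, which includes air library 7 at 48.1 CPM, was above each of the 8 exposed libraries. The log2 fold changes were 0.04 ± 0.107, -0.20 ± 0.093 and -0.33 ± 0.177, with edgeR adjusted p of 0.948, 0.579 and 0.235, and the day 27 value was -0.18 without air library 7. From day 1 to day 27 the effect of exposure on Nkg7 changed by -0.37 ± 0.195 on the log2 scale, which did not pass (edgeR adjusted p = 0.376).

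The receptors did not separate the groups either. Klrd1 ran from 6.83 to 13.1 CPM in air at day 1 (median 8.34) and from 6.95 to 12.3 CPM after exposure (median 8.22). Its medians in air and exposed lungs were 9.93 and 9.58 CPM at day 7 and 12.5 and 10.9 CPM at day 27, and its log2 fold changes were 0.04 ± 0.137, -0.14 ± 0.133 and -0.23 ± 0.167. The difference in medians at day 27 was small beside the range of the air libraries at that day, 7.69 to 20.5 CPM. Ncr1, the most NK-restricted of the genes, had medians of 10.2 and 9.54 CPM at day 1, 10.2 and 9.58 CPM at day 7, and 11.0 and 10.3 CPM at day 27. Its log2 fold changes of -0.02 ± 0.102, -0.07 ± 0.144 and 0.05 ± 0.153 had edgeR adjusted p of 0.977, 0.931 and 0.853. At day 1 the 95% interval of the Ncr1 fold ran from 0.852 to 1.15.

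The T-box factors Eomes and Tbx21 had estimates on opposite sides of 0 on each day. Eomes rested on 12 to 65 counts per library and ran from 1.61 to 3.68 CPM in air at day 1 (median 2.76) and from 2.28 to 4.23 CPM after exposure (median 3.17). At day 7 it ran from 0.969 to 4.20 CPM in air (median 3.09) and from 2.16 to 4.85 CPM after exposure (median 3.72). At day 27 it ran from 2.22 to 5.25 CPM in air (median 3.07) and from 2.97 to 5.94 CPM after exposure (median 3.74). Exposed medians were higher on each day, but the ranges overlapped, and the log2 fold changes of 0.20 ± 0.165, 0.32 ± 0.241 and 0.14 ± 0.191 did not pass (edgeR adjusted p = 0.774, 0.740 and 0.660).

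Tbx21, which drives interferon production and killing in type 1 lymphocytes, was the gene that differed most steadily. At day 1 it ran from 10.3 to 14.0 CPM in air (median 12.4) and from 8.15 to 11.9 CPM after exposure (median 10.7). At day 7 it ran from 9.02 to 14.9 CPM in air (median 12.6) and from 7.61 to 11.5 CPM after exposure (median 10.1). At day 27 it ran from 9.65 to 19.0 CPM in air (median 12.9) and from 9.64 to 14.3 CPM after exposure (median 11.8). At days 1 and 7 the air mean was above each of the 8 exposed libraries, and at day 27 above 6 of 8, though the ranges overlapped each time. As means, day 1 was 12.4 ± 1.18 CPM in air (SD, n = 8) and 10.5 ± 1.21 CPM after exposure (SD, n = 7), and day 7 was 11.9 ± 2.16 and 9.43 ± 1.65 CPM (SD, n = 7 each). The log2 fold changes were -0.23 ± 0.082, -0.33 ± 0.115 and -0.22 ± 0.141, with edgeR p of 0.0109, 0.00854 and 0.129 and adjusted p of 0.432, 0.463 and 0.314.

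Over the 3 days together, with 24 air and 24 exposed libraries in a single fit of all 48, Tbx21 fell by 0.27 on the log2 scale (SE 0.069), a fold of 0.832 (95% interval 0.756 to 0.916). It passed by edgeR (adjusted p = 0.0185) and was the only one of the 9 rows called, beside 6.88% of all 14852 genes tested, with 3.73% called lower and 3.15% higher. Across the 7 alternatives its adjusted p ran from 0.00704 to 0.0294, and it passed without each of the 48 libraries in turn (log2 fold change -0.29 to -0.24). The next in size were Eomes at 0.22 ± 0.120 (edgeR adjusted p = 0.242) and Nkg7 at -0.17 ± 0.080 (adjusted p = 0.171). The remaining 6 rows lay between -0.11 and 0.13. Beside the lower Tbx21, 0 of 15 T cell markers and 0 of 4 markers of all leucocytes were called for the same contrast, with median log2 fold changes of -0.05 and -0.00. Of 8 B cell markers 1 was called lower, Cd79a at -0.39 ± 0.094, and all 8 estimates lay below 0, with a median of -0.22. The 6 mast cell and basophil markers also all had estimates below 0, with a median of -0.17, and 0 were called. Summed T cell markers had medians of 175, 176 and 214 CPM in air and 176, 173 and 183 CPM in exposed lungs at days 1, 7 and 27. The part of these markers in the Tbx21 result was not tested.

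Ordered by median, Tbx21 was lowest in exposed lungs at day 7 (10.1 CPM), then at day 1 (10.7) and day 27 (11.8), followed by air lungs at days 1, 7 and 27 (12.4, 12.6 and 12.9). All 3 exposed medians thus lay under all 3 air medians, while the ranges of neighbouring groups overlapped. The exposure effect on the 9 rows did not differ detectably between days. By edgeR 0 of 9 rows were called for day 7 against day 1 (0% of all genes), 0 for day 27 against day 7 (0.0202%) and 0 for day 27 against day 1 (0.498%). None of the 9 had an unadjusted p under 0.05 in these 3 contrasts, where 7.50%, 14.9% and 14.6% of all genes had one, and all 7 alternatives, DESeq2 and limma-voom among them, also called 0.

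**Figure D2:**
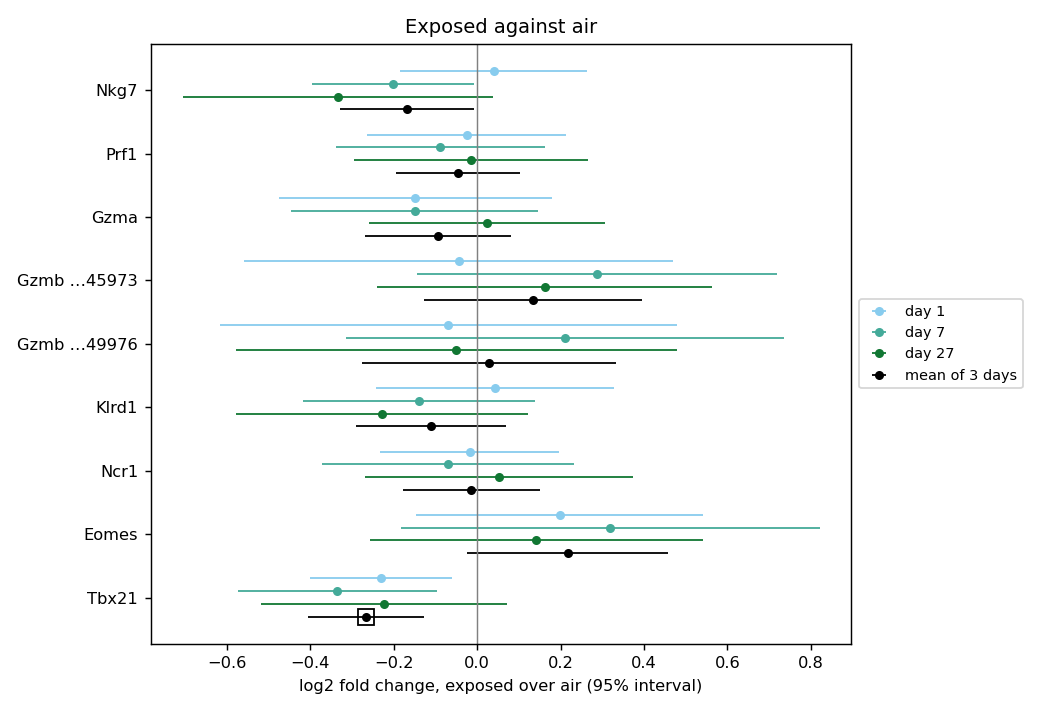
Log2 fold change of exposed over air lungs (x axis) for the 9 rows (y axis), at each day and as the mean of the 3 days. Points are edgeR estimates, lines their 95% intervals, and an open square marks an adjusted p under 0.05. The mean over 3 days of Tbx21, at -0.27, carries the single square.

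Some of these genes rose from day 1 to day 27, 4 of 9 rows in air and 2 of 9 in exposed lungs. The 2 Gzmb rows taken singly, Ncr1, Eomes and Tbx21 passed in neither. In air lungs 4 of 9 rows rose, where 9.15% of all genes tested were called higher and 8.45% lower, and all 9 estimates lay above 0, with a median log2 fold change of 0.47 against 0.01 for all genes. Nkg7 rose from a mean of 17.5 to 27.9 CPM over 8 libraries each, by 0.68 ± 0.138 on the log2 scale (edgeR adjusted p = 0.00046). Prf1 rose by 0.47 ± 0.128 (adjusted p = 0.00793), Gzma by 0.52 ± 0.151 (adjusted p = 0.0133) and the receptor gene Klrd1 by 0.56 ± 0.155 (adjusted p = 0.00896). The 2 Gzmb rows, at 0.36 and 0.69, did not pass (edgeR adjusted p = 0.285 and 0.0609), nor did Ncr1 at 0.15, Eomes at 0.39 and Tbx21 at 0.16.

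Air library 7 of day 27 bore on several of these values. Without it Nkg7 and Prf1 still passed, while Gzma at 0.42 and Klrd1 at 0.42 had edgeR adjusted p of 0.0548 and 0.0509. With the close pairs summed, the Gzmb row ENSRNOG00000049976 also passed, at 0.76. Day after exposure, age of the rats and the table that holds them change together and cannot be told apart.

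In exposed lungs 2 of 9 rows rose from day 1 to day 27, where 5.87% of all genes were called higher and 5.65% lower. Gzma rose from a mean of 23.0 to 37.1 CPM, by 0.69 ± 0.151 (edgeR adjusted p = 0.00136), and Prf1 from 56.2 to 78.4 CPM, by 0.48 ± 0.128 (adjusted p = 0.00856). All 9 estimates again lay above 0, with a median of 0.33. As a sum of its rows, Gzmb rose too, by 0.65 ± 0.213 (adjusted p = 0.0396). Nkg7 at 0.30 (adjusted p = 0.163) and Klrd1 at 0.29 (adjusted p = 0.251) did not pass there, and their day 27 against day 1 difference between exposed and air lungs did not pass either, at -0.37 and -0.27 (adjusted p = 0.376 and 0.602).

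**Figure D3:**
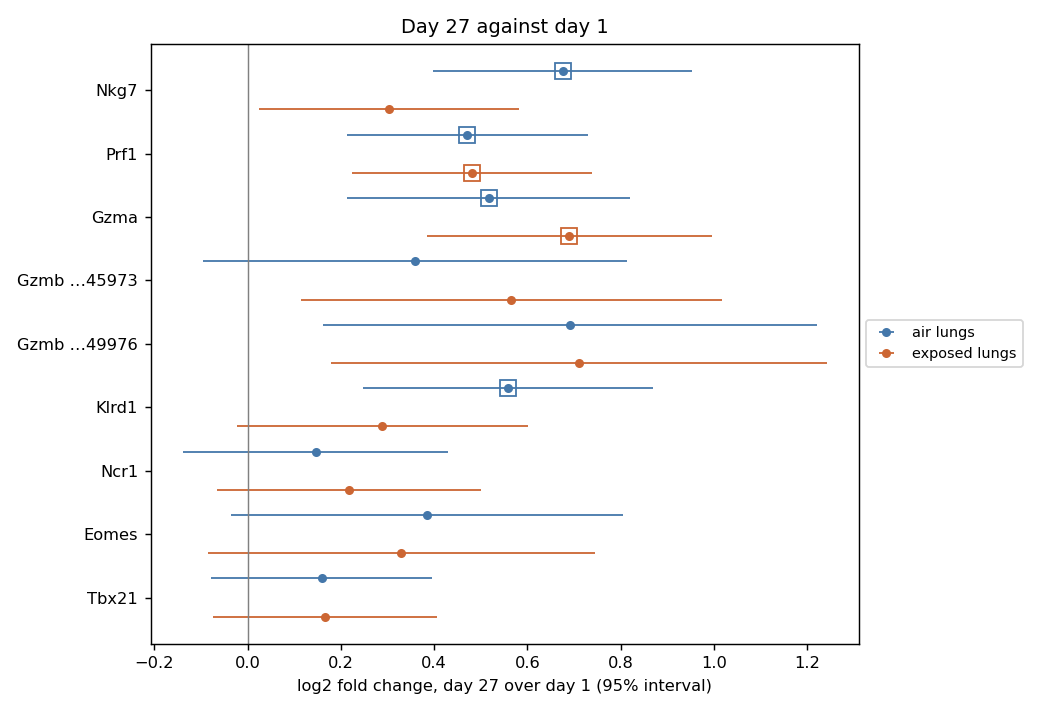
Log2 fold change of day 27 over day 1 (x axis) for the 9 rows (y axis), in air (blue) and exposed lungs (orange). Points are edgeR estimates with 95% intervals, and an open square marks an adjusted p under 0.05. All estimates lie to the right of 0, with squares on Nkg7, Prf1, Gzma and Klrd1 in air and on Prf1 and Gzma in exposed lungs.

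From day 1 to day 7, 0 of 9 rows were called in air lungs (8.32% of all genes) and 0 of 9 in exposed lungs (2.14%) by edgeR, DESeq2 and limma-voom. In those contrasts 1 and 2 rows had an unadjusted edgeR p under 0.05, as did 26.0% and 20.2% of all genes. From day 7 to day 27, Nkg7 rose in air lungs by 0.41 ± 0.137 (edgeR adjusted p = 0.0159), the single call of 9 beside 20.0% of all genes called higher and 19.7% lower. Without air library 7 of day 27 it was 0.24 (adjusted p = 0.119). In exposed lungs Gzma rose by 0.49 ± 0.151 (edgeR adjusted p = 0.0271), again 1 of 9, beside 6.36% of all genes called higher and 5.69% lower. That call was lost without exposed library 2 or 7 of day 7, or 2 or 4 of day 27, each in turn (adjusted p 0.0549 to 0.0718). The 2 Gzmb rows taken singly, Ncr1, Eomes and Tbx21 were called in none of the 6 comparisons over time.

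Some markers of other leucocytes changed over the same days. In air lungs from day 1 to day 27, 4 of 15 T cell markers, 3 of 8 B cell markers and 3 of 4 markers of all leucocytes rose, where 9.15% of all genes were called higher. Without air library 3, 6 or 7 of day 27, each in turn, the T cell count was 2, the B cell count 1 and the all-leucocyte count 2. Without air library 1 of day 1 the counts were 3, 2 and 2. Several other libraries, left out in turn, also lowered 1 or more of them. The summed T cell markers had a lowest value of 145 CPM and a median of 175 CPM at day 1, and a lowest value of 157 CPM and a median of 214 CPM at day 27. The summed markers of all leucocytes went from a median of 749 to 911 CPM. In exposed lungs, where 5.87% of all genes were called higher, 0 of 15, 0 of 8 and 0 of 4 of these were called, with T cell medians of 176 and 183 CPM and all-leucocyte medians of 807 and 811 CPM. Of 4 dendritic cell markers 2 rose in exposed lungs (Xcr1 by 0.49 and Clec9a by 0.40 on the log2 scale) and 0 were called in air, and the Clec9a call was lost without 6 libraries, each in turn. All 5 neutrophil markers had estimates below 0 in both, with medians of -0.51 in air and -0.40 in exposed lungs, and Mmp8 was called lower in each. In exposed lungs the Mmp8 call was lost without library 3 or 5 of day 1 or 6 of day 27. The part of leucocyte content in the rises was not tested. For the exposure effect at day 27 against day 1, edgeR called 0 of 15 T cell markers and 0 of 4 all-leucocyte markers. Of 8 B cell markers 1 was called, lower, beside 0.498% of all genes. Estimates below 0 numbered 13 of 15, 4 of 4 and 8 of 8, with medians of -0.25, -0.17 and -0.54. None of the 4 dendritic cell and 5 neutrophil markers were called.

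Beyond group averages, most pairs of the 8 genes rose and fell together from rat to rat. After subtracting group means from log2 CPM, with Gzmb summed, all 28 pairs of genes had a Pearson's r above 0 over the 48 libraries, with a median of 0.46 and a range of 0.12 to 0.83. With permutation within groups and Benjamini-Hochberg adjustment over the 28 pairs, 21 pairs passed by Pearson's r and 22 by Spearman's rho. By Pearson's r, Eomes passed with 3 of 7 partners, Tbx21 and Gzmb with 4 each, and Nkg7 and Klrd1 with all 7. The share of pairs of other genes that would pass was not computed. The 3 tightest pairs were Prf1 with Nkg7 (r = 0.83, rho = 0.79), Prf1 with Gzma (r = 0.82, rho = 0.81) and Prf1 with Gzmb (r = 0.79, rho = 0.74). Each had a permutation adjusted p of 4e-05, the smallest that 100000 permutations give here. Without the 2 libraries farthest from the median, r was 0.81, 0.78 and 0.75 for these pairs, and the median over all 28 pairs was 0.42.

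**Figure D4:**
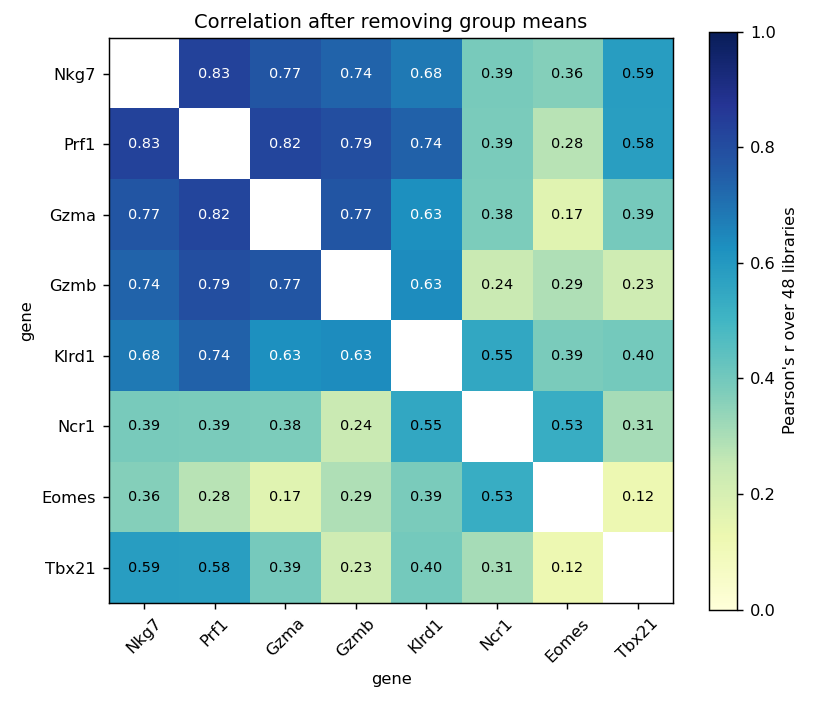
Pearson's r between each pair of the 8 genes (both axes) over 48 libraries, after group means were subtracted from log2 CPM. Values run from 0.12 to 0.83, and the highest are among Nkg7, Prf1, Gzma and Gzmb.

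Ncr1, Eomes and Tbx21 followed the granule genes less closely in these values, while the receptor gene Klrd1 did not stand apart from them. Klrd1 had a median r of 0.63 with its 7 partners, as had Gzma (0.63) and Gzmb (0.63). Ncr1 had a median r of 0.39, with its highest r for Klrd1 (0.55) and Eomes (0.53). Tbx21 was closer to Nkg7 (r = 0.59, rho = 0.51, adjusted p = 0.00021 by permutation) and Prf1 (r = 0.58, rho = 0.54) than to Gzmb (r = 0.23, rho = 0.19, adjusted p = 0.183 by permutation). Eomes and Tbx21 showed the lowest value of all pairs (r = 0.12, rho = 0.13, adjusted p = 0.462 by permutation). Eomes was also the gene with the fewest counts, a median of 38.5 per library against 135 for Tbx21 and 764 for Prf1, and the part of counting noise in its low values was not tested. Within single groups of 8 the median r over pairs was 0.33, 0.44 and 0.81 in air lungs at days 1, 7 and 27 and 0.56, 0.32 and 0.54 in exposed lungs.

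A few rats carried much of this range. Air library 7 at day 27 was highest in its group for 6 of the 8 genes, with Nkg7 at 48.1 CPM beside a group median of 24.2 and Prf1 at 116 CPM beside 79.0. Air library 7 at day 7 and exposed library 8 at day 1 were also highest for 6 genes each. At the other end, exposed library 7 at day 7 was lowest for 7 genes and exposed library 5 at day 27 for 6. High and low rats were thus found under air and under exposure. Without air library 7 of day 27 the median r was 0.43 and 19 of 28 pairs passed by Pearson's r.

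**Figure D5:**
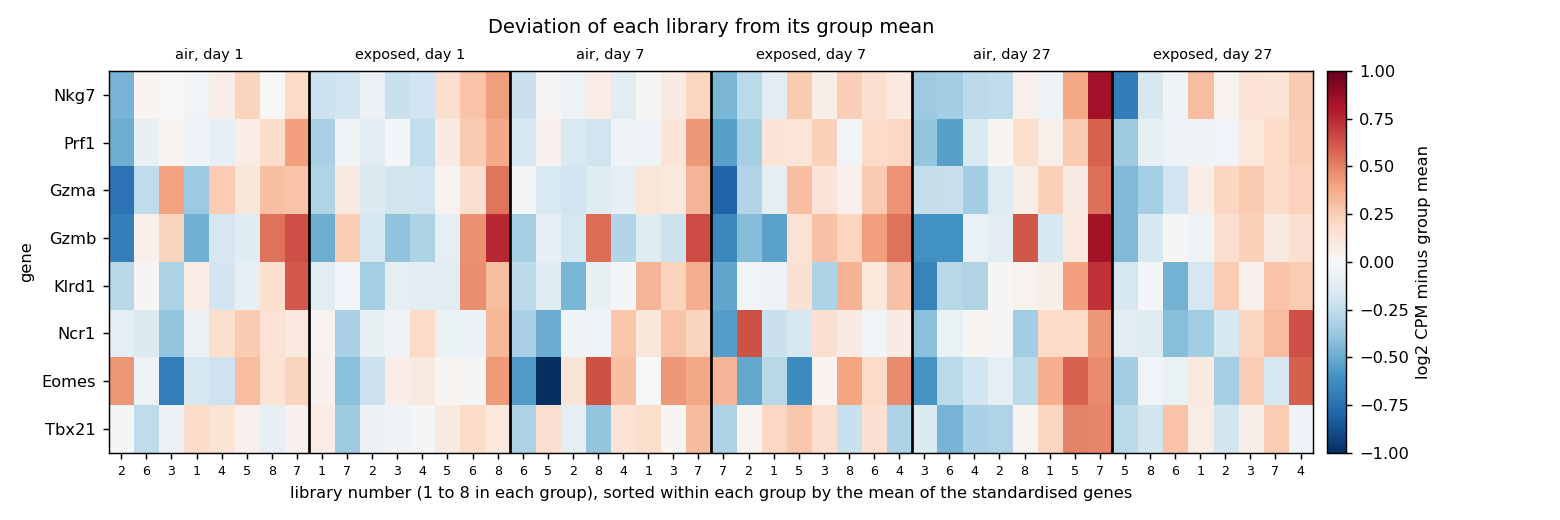
Deviation of each library from its group mean in log2 CPM (colour, red above and blue below, limited to 1 either way) for the 8 genes (y axis) in the 48 libraries (x axis, numbered 1 to 8 in each group), sorted within each group by the mean of the standardised genes. Columns of 1 colour mark rats in which most of the genes were high or low together, such as air library 7 at day 27, exposed library 8 at day 1 and exposed library 7 at day 7.

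Other genes of cytotoxic lymphocytes followed the same rats. Ranked by Spearman's rho with the mean of the 8 standardised genes over 48 libraries, the nearest of 12897 genes was Il2rb (rho = 0.85), the receptor chain through which NK cells receive survival signals. It was followed by the granzyme gene Gzmk (0.83), the chemokine gene Ccl5 (0.82) and the coreceptor gene Cd8a (0.70). Next came the adaptor Dok2, the granzyme gene Gzmm, the NK cell sphingosine phosphate receptor S1pr5, the death ligand gene Faslg, the Schlafen gene Slfn3 and the adhesion receptor gene Emr4, at 0.65 to 0.64. For all ranked genes the 5th and 95th percentiles of rho were -0.29 and 0.32, and all values share the same libraries.

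Single T cell markers varied, and which cells carried their RNA was not tested. Beside Cd8a at 0.70, the coreceptor gene Cd4 had a rho of 0.38, above the 95th percentile, as did Cd247 (0.38), a signalling chain of both T and NK cell receptors, while Cd3e had 0.03 and Cd3d 0.09. The B cell genes Cd79a and Ms4a1 had 0.02 and -0.02, and the pan-leucocyte gene Ptprc had 0.23. Among NK receptors, Klrc2 (0.61) and Klrb1b (0.60) were near, while Klrk1 was at 0.13. As whole lists, the mean of T cell markers had r = 0.17 (rho = 0.21) with the mean of the 8 genes, B cell markers -0.08 (0.03) and markers of all leucocytes 0.37 (0.38). Mast cell and basophil markers had 0.24 (0.17), neutrophil markers 0.19 (0.16) and macrophage markers 0.15 (0.12). None of these lists passed by permutation, with a lowest adjusted p of 0.135 for Pearson's r and 0.0990 for Spearman's rho.

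Since Nkg7, Prf1, Gzma and Gzmb moved together most closely, the 250 bases before their annotated starts are shown, from RefSeq on build GRCr8, read 5′ to 3′ on the gene's strand. Capitals mark matches to the core letters of Runx sites (TGTGGT) and ETS sites (GGAAGT), families of factors known in lymphocytes, on either strand. The windows are chr1:102981247-102981496 (plus strand) for Nkg7, chr20:29788790-29789039 (plus) for Prf1, chr2:46485697-46485946 (minus) for Gzma and chr15:34462470-34462719 (minus) for Gzmb.
Nkg7: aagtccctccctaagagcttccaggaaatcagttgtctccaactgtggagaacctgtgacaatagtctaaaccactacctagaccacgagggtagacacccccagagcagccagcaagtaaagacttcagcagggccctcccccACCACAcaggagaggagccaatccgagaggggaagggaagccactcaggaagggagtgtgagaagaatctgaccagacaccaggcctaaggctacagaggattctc
Prf1: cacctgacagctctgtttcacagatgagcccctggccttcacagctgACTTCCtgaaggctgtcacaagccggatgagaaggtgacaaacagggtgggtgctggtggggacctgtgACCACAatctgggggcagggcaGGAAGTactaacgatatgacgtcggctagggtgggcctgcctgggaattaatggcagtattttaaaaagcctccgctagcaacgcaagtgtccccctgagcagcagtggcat
Gzma: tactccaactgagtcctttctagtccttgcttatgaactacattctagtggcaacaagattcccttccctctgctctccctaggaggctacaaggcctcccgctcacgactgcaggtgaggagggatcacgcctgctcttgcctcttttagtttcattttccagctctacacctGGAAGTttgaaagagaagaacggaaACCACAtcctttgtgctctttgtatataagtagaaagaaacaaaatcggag
Gzmb: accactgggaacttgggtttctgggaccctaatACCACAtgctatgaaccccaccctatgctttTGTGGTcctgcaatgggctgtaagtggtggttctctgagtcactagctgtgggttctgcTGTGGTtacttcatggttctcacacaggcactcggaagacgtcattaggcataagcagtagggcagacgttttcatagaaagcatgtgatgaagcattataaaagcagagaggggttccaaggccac
Of the 9 genes, 7 had an entry, with Klrd1 and Ncr1 missing. Klrb1a, whose RNA level was not analysed, is among the 7. The Runx letters were present in 5 of 7 windows (Nkg7, Prf1, Gzma, Gzmb and Eomes), against 14.5% of all 33469 windows of that length, and Gzmb held 3 matches. The ETS letters were in 3 of 7 (Prf1, Gzma and Klrb1a), against 19.2%. The T-box letters GGTGTGA, the core bound by Eomes and Tbx21, were in 0 of 7, against 3.22%. The motifs do not overlap each other in these windows, and a match is a description of the letters only.

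The wider NK programme was read from 6 lists of 113 further genes, of which 94 had a row. At day 1, 0 of 80 tested were called by edgeR (7 with an unadjusted p under 0.05, beside 8.67% of all genes), and at day 7, 0 of 81 (8 with one, beside 8.47%), with 0 by DESeq2 and limma-voom on both days. At day 27, 1 of 81 was called, higher after exposure (14 with an unadjusted p under 0.05, beside 26.7% of all genes), where 2.18% of all genes were called higher. Lists of receptors, adaptors, granule proteins, transcription factors and receptor ligands had 0 calls, with median log2 fold changes of -0.02, -0.09, -0.05, 0.02 and 0.00.

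Over the 3 days together, 2 of 82 were called, 1 in each direction, beside 6.88% of all genes. Il2rg, the common gamma chain of interleukin receptors on which NK cells depend, fell by 0.13 on the log2 scale (SE 0.030, edgeR adjusted p = 0.0123), from 82.8 to 75.8 CPM. It passed in all 7 alternatives and without each of the 48 libraries in turn. Among the marker lists at day 27, 1 of 15 T cell markers fell, the lymph node homing receptor gene Ccr7 (-0.57). Of 8 B cell markers 2 fell, Cd79a (-0.80) and Fcrla (-0.71). Of 6 mast cell and basophil markers 1 fell, the basophil protease gene Mcpt8 (-0.89). Estimates below 0 numbered 12 of 15, 8 of 8 and 5 of 6, with medians of -0.21, -0.70 and -0.55. The 4 called genes had edgeR adjusted p of 0.0288 to 0.0481, where 3.33% of all genes were called lower. Each of these 4 calls was lost with the close pairs summed, and without 9 to 14 of the 16 libraries, each in turn.

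Over time some genes of the wider lists changed. From day 1 to day 27 in air lungs 20 of 82 rose and 1 fell (Ets1, by 0.22 on the log2 scale), beside 9.15% and 8.45% of all genes, with a median log2 fold change of 0.21. Granule genes had 6 of 14 higher, among them Gzmk (0.51 ± 0.128), Cst7 (0.74 ± 0.182), an inhibitor of granule proteases, and the secretion genes Unc13d (0.29 ± 0.056) and Rab27a (0.20 ± 0.039). Adaptors had 6 of 15 higher, among them Tyrobp (0.31), Fcer1g (0.31), Cd247 (0.40) and Lck (0.38), which T cells, NK cells or myeloid cells also use. Receptors had 3 of 16 higher (Klre1, Klrb1b and Klrg1), and cytokine and chemokine genes 5 of 23, among them Ccl5 (0.62 ± 0.127) and Cx3cl1 (0.65 ± 0.107), a chemokine that draws NK cells. Transcription factors had 0 of 11 higher and ligands of NK receptors 0 of 3. Without air library 7 of day 27, 8 of these 21 calls were lost, among them all 3 receptors and the adaptors Tyrobp, Fcer1g and Hcst, so that the receptor count was 0 and the adaptor count 3. Without library 6 of day 27 the cytokine and chemokine count was 3.

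In exposed lungs 15 of 82 rose from day 1 to day 27 and 0 fell, beside 5.87% and 5.65% of all genes, with a median of 0.14. Receptors had 4 of 16 higher, Klrb1c (0.71 ± 0.152), Fcgr3a (0.44 ± 0.120), the receptor for antibody-coated targets, Klri1 (0.45) and Cd96 (0.40). Granule and death ligand genes had 5 of 14 higher, with Gzmk at 0.62 ± 0.128, and cytokine genes 4 of 23, with Il2rb at 0.36 ± 0.109 and Ccl5 at 0.47 ± 0.128. Nfil3, a transcription factor needed for NK cell development, rose by 0.75 ± 0.150, and adaptors had 0 of 15 called. Without exposed library 3 of day 27, 6 of these 15 calls were lost. The calls of Klri1 and Cd96 were both lost without any 1 of 10 exposed libraries, which left 2 receptors, and the granule count fell to 3 or 2 without any 1 of 7 and the cytokine count to 2 without any 1 of 3.

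From day 7 to day 27, 24 of the 82 genes rose and 6 fell in air lungs, beside the 20.0% and 19.7% of all genes called higher and lower. In exposed lungs 8 of 82 rose and 1 fell, beside 6.36% and 5.69% of all genes. The exposure effect on these 82 genes did not differ detectably between these days. By edgeR 0 were called for day 27 against day 7, beside 0.0202% of all genes. For day 27 against day 1, 0 were called, beside 0.498%. An unadjusted p under 0.05 was found for 10 and 6 of the 82, where 14.9% and 14.6% of all genes had one.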

How the data were processed

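Total RNA from a piece of lung was sequenced from strand-preserving libraries of polyadenylated RNA, per the labels' protocols. The authors deposited a table for each day of expected counts, which are estimated reads of a gene and can be fractions. Salmon 1.10.1, STAR 2.6.1d, the trimmers Trim Galore 0.6.7 and cutadapt 3.4, the converter bcl2fastq 2.19 and the build Rnor_6.0 are listed without settings, per the submitters' processing notes. Groups came from the labels, and libraries were numbered within a group in the order of their listing. The genes and lists were chosen with earlier results of these data known.

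Expected counts were rounded and tested with edgeR 4.0.16 in R 4.3.3 (TMM, filterByExpr, robust quasi-likelihood F test, Benjamini-Hochberg over all genes, threshold 0.05), each day by itself. Means over days, differences between days and time were contrasts in a single fit of 48 libraries. CPM used TMM factors, and log2 CPM for correlations a prior count of 2, with 100000 two-sided permutations within groups. Alternatives were RLE factors, other filters, DESeq2 1.42.0, limma-voom (limma 3.58.1), a single fit of 48 libraries, close pairs summed and each library left out. Summing Gzmb rows, leaving out libraries for contrasts in the single fit and correlating without air library 7 of day 27 were chosen after seeing the data. Correlations were computed for 28 pairs of genes, since Klrb1a was not matched by name. Named genes were the 8 genes, every list gene called for exposure at any day (except 1 that is not reported here), up to 6 of a list by smallest p over time, the 10 genes nearest in correlation and a few defining markers. The steps were tested on simulated data.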

Additional observations from a re-analysis of the deposited data

Results flagged for a closer look

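Within groups of 8, 4 of 54 gene and group combinations had a highest or lowest library far from the others, by a gap to its neighbour above Dixon's 95% critical value, which chance gives in about 1 of 20 groups. The Gzmb row ENSRNOG00000049976 was at 37.7 CPM in air library 7 at day 27. Prf1 was at 96.6 CPM in air library 7 at day 7. Klrd1 was at 13.1 CPM in air library 7 at day 1. Nkg7 was low, at 12.5 CPM, in air library 2 at day 1. All 4 were air libraries.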

How the results depend on the processing

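Counts of the 9 rows called for exposure, 0 on each day and 1 for the mean over days, were the same under all alternatives and without each library. Further NK genes called at day 27, 1 by edgeR, were 5 with all 48 libraries in a single fit, 5 by DESeq2, 0 with no filter on low counts, 0 with close pairs summed and 0 to 5 with 1 library left out. Over all genes, 783 were called at day 27, against 2227 in the single fit, 1609 by DESeq2, 474 with no filter and 31 with close pairs summed. The cause was not tested. With 1 library left out, rows called from day 7 to day 27 were 0 to 2 in air and 0 to 1 in exposed lungs, and from day 1 to day 27 were 2 to 5 in air and 2 to 3 in exposed lungs. No paired analysis was possible because animal numbers do not repeat between groups. Depth limits Eomes most, at 12 to 65 counts per library.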

Other observations

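The log2 ratio of Tbx21 to Eomes counts, a measure chosen after the values of both genes were seen and given without a test, had a median of 1.95 in air and 1.75 in exposed lungs at day 1. Medians were 1.99 and 1.48 at day 7 and 1.80 and 1.58 at day 27. At day 7 the ratio ran from 1.07 to 3.58 in air and from 0.63 to 2.32 in exposed lungs, so the groups overlapped.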
